A study of Mus musculus with 13 samples.

Results

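Interferon-stimulated genes and the genes of the immunoproteasome were followed in mouse liver. They were 39 listed genes, taken where the platform annotation gave them a probe set with their symbol alone, and of several such probe sets the one with the highest mean signal was used. Of these, 35 had such a probe set among 22180 genes, and 33 of them passed the filter on dim signal, among 13308 genes tested. Mx1 and Gbp6 lay below the filter. Oas1a, Gbp2 and Ifi47 were listed only on probe sets shared with other genes, and Ifi44 was not analysed here.

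Liver RNA came from male C57Bl/6J mice, which began a diet with 60% fat at 6 weeks of age and ate it for 4 weeks to become obese. During the next 4 weeks the mice of 4 arrays received canagliflozin at 25 to 30 mg/kg on that diet (CANA), the mice of 5 arrays were restricted in calories by 15 to 30% so as to match the weight of the CANA mice (CR), and the mice of 4 arrays went on with the diet alone (HFD). All 3 groups share the strain, the sex and the period of fat feeding, so no lean liver is among them, and CR differs from HFD in food intake as well as in weight. Canagliflozin inhibits SGLT2, the glucose transporter of the kidney tubule, and the CR group allows a comparison at matched weight. CANA and CR differ in calorie restriction as well as in the drug, so their comparison does not isolate the drug.

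Interferons bind surface receptors whose JAK kinases phosphorylate STAT proteins. Type I and type III interferons assemble STAT2 and IRF9 with a further STAT protein into ISGF3, which binds interferon-stimulated response elements (ISRE), and interferon gamma forms STAT dimers that bind gamma-activated sites (GAS). Their targets include RNA sensors, antiviral proteins, the GTPases that attack vacuoles of intracellular microbes, and the immunoproteasome, in which PSMB8, PSMB9 and PSMB10 take the places of the constitutive catalytic subunits and make peptides for MHC class I. In liver, hepatocytes, Kupffer cells and sinusoidal endothelium all respond to interferon.

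Some, but not all, of the members' promoters carry matches to the cores of these elements. RefSeq windows on GRCm38.p6, from 250 bases before to 50 bases after each annotated start, were given for 29 of the 39 members. The ISRE core, GAAA and GAAA with any 2 bases between them, read on both strands, was found in 15 of 29 members (51.7%), against 1079 of 27025 genes of the table (3.99%). The GAS core, TTC and GAA with any 3 bases between them, which reads the same on both strands, was found in 9 of 29 members (31.0%), against 2582 of 27025 genes (9.55%). Both cores were found in 5 members (17.2%, against 0.614% of all genes), and neither was found in 10 (34.5%). These are matches of letters and not measured binding sites.

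Windows of 90 bases are shown for 7 members that differ in the make-up and spacing of these cores, 5′ to 3′ in the direction of transcription, with every ISRE or GAS core in capitals. Those of Igtp and Irgm2, neighbouring genes whose starts lie 15421 bases apart, are identical at 88 of 90 positions, with a GAS core followed by an ISRE core. In Gbp7 a pair of GAS cores precedes a reversed ISRE core, in Bst2 the cores overlap, and in Isg15 a run of GAAA blocks gives 3 overlapping ISRE cores. Ifit3 has 2 reversed ISRE cores and Rsad2 has 1, and neither has a GAS core. They lie at chr11:58199476-58199565 on the plus strand, chr11:58214867-58214956 on the plus strand, chr3:142530216-142530305 on the plus strand, chr4:156200842-156200931 on the minus strand, chr8:71537554-71537643 on the minus strand, chr19:34583349-34583438 on the plus strand and chr12:26456524-26456613 on the minus strand.
Igtp: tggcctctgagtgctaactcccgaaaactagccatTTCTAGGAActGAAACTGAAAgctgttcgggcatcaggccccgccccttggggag
Irgm2: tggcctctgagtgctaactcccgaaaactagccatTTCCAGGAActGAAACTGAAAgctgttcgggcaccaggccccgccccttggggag
Gbp7: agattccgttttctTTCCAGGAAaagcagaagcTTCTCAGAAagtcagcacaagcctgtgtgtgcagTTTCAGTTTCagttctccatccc
Isg15: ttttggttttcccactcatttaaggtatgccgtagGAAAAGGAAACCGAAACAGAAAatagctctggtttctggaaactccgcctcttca
Bst2: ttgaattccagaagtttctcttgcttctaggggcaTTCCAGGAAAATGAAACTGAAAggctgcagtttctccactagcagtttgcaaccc
Ifit3: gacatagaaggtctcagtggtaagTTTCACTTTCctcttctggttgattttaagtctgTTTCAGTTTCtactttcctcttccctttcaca
Rsad2: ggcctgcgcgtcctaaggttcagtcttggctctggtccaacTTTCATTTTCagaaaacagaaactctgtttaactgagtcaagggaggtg

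**Figure D1:**
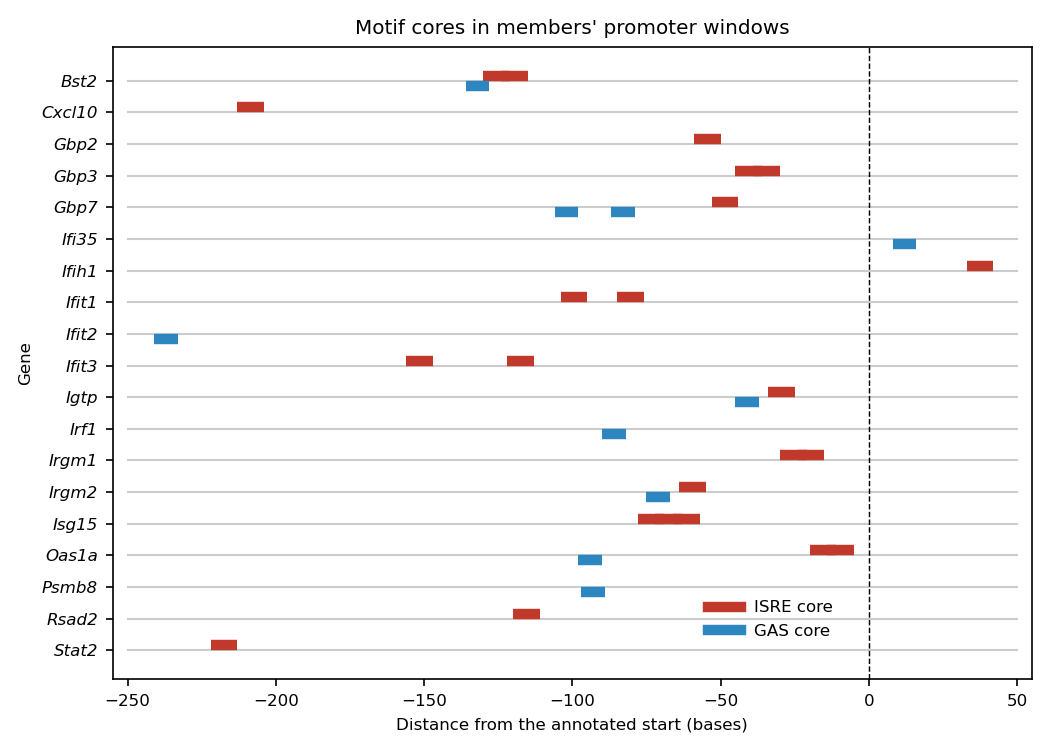
Positions of ISRE cores (red, raised) and GAS cores (blue, lowered) in the promoter windows of the members that hold at least 1, in bases from the annotated start (dashed line, transcription running to the right). All cores except those of Ifih1 and Ifi35 lie before the start, and Gbp7, Igtp, Irgm2, Bst2 and Oas1a hold both kinds.

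The values are log2 signals after the robust multi-array average (RMA), a background correction, normalization and summary of the probes of each probe set. Levels of different genes were not compared, since probe sets differ in their response. The medians of the arrays lay between 4.07 and 4.13, and the Pearson r between pairs of arrays was 0.986 to 0.992 over genes. The 8 hepatocyte markers examined had mean log2 signals between 9.60 and 14.0, which matches the labelled tissue. The labels do not say that each array is a separate animal, so the p-values reflect the spread among these arrays, which may be technical, and precision is limited by how many arrays there are. In whole liver, fewer cells of a type and less RNA per cell cannot be told apart. Among members, the paralogs of the Gbp, Ifit, Oas and Irgm families may share hybridising sequence, which was not tested.

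No member passed the threshold in any comparison. The threshold was a Benjamini-Hochberg adjusted p under 0.05 in limma, adjusted over all 13308 genes. Percentages of all tested genes are given beside the counts of calls over all 33 members. Counts below 0 in smaller lists are to be read beside 53.9% of all genes in CANA against HFD and 53.6% in CR against HFD. In CANA against HFD, 0 of 33 members were called, where 22 genes in all were called (0.165%). In CR against HFD, 0 of 33 members and 0 of all genes were called (0%), with 498 genes at an unadjusted p under 0.05. In CANA against CR 0 of 33 members were called, where 20 genes in all were (0.15%). The comparisons of CANA and of CR with HFD share the same 4 HFD arrays, so their values are given side by side and are not independent of each other.

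HFD livers had the highest group mean for 25 of the 33 members, CANA livers for 7 (Ifit2, Ifit3, Oas2, Rsad2, Usp18, Dhx58 and Cxcl10) and CR livers for 1 (Gbp3). The corresponding shares over all tested genes were not counted. Averaged over the 33 members, the deviation from each member's mean over 13 arrays was -0.06, 0.03, -0.06 and -0.02 in CANA replicates 1 to 4. It was -0.20, 0.07, 0.06, -0.09 and -0.10 in CR replicates 1 to 5, and 0.06, 0.14, 0.04 and 0.14 in HFD replicates 1 to 4. All CANA arrays lay below all HFD arrays on this average, but narrowly, with the highest CANA array at 0.026 and the lowest HFD array at 0.039. On the same average, 63 other interferon-stimulated genes overlapped, with the highest CANA array at 0.02 and the lowest HFD array at -0.001. The 13 MHC class I and peptide-loading genes separated, with the highest CANA array at -0.04 and the lowest HFD array at 0.05. How often averages of genes picked at random separate in this way was not examined. The CR arrays reached from below the lowest CANA array into the HFD range. The average over all tested genes stayed between -0.02 and 0.02 on every array.

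**Figure D2:**
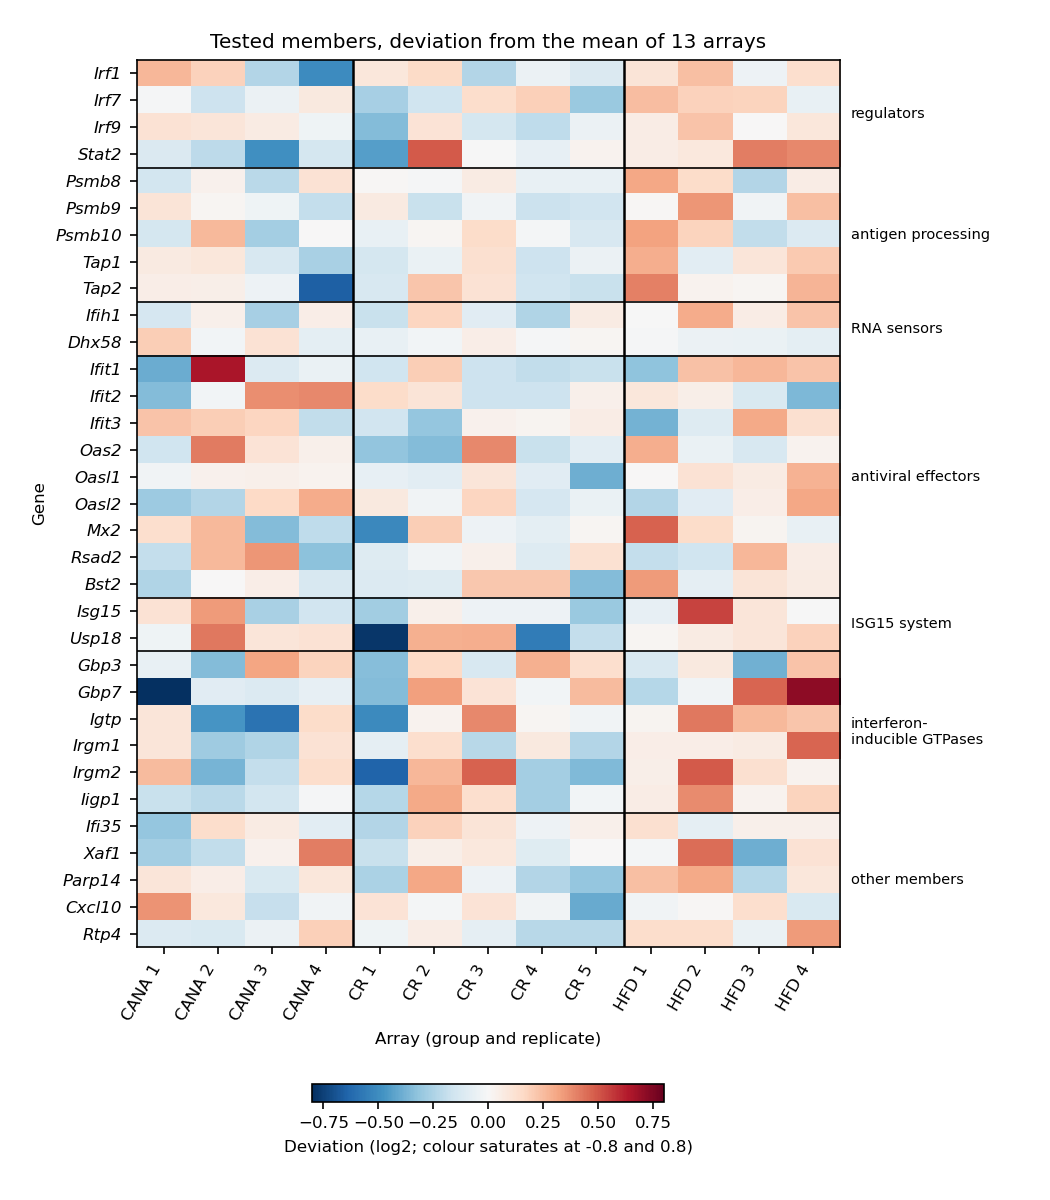
Deviation of the log2 signal of each of the 33 tested members (rows, grouped by role) from its own mean over 13 arrays (columns, in the order CANA, CR and HFD); red is above and blue below that mean. Single arrays stand out gene by gene, such as Gbp7 in CANA replicate 1 at 5.72 and Usp18 in CR replicate 1 at 5.53, more than whole groups do.

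**Figure D3:**
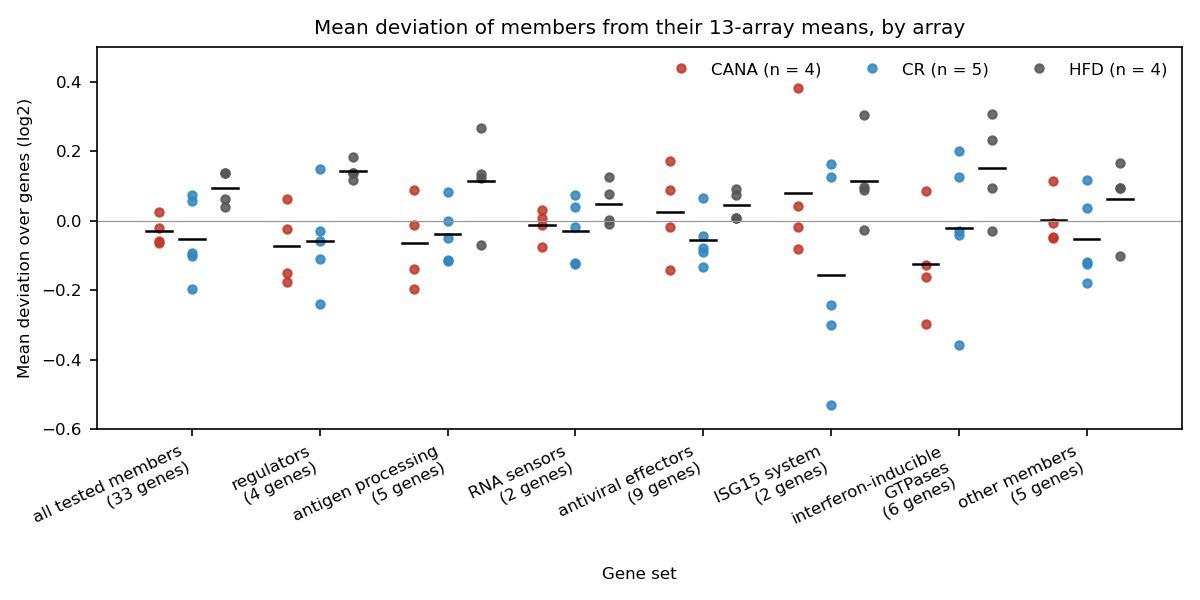
Mean deviation (log2) per array over all 33 tested members and over each role group, in CANA, CR and HFD; each point is 1 array and each bar a group mean. For all members the CANA arrays lie between -0.06 and 0.03 and the HFD arrays between 0.04 and 0.14, and the CR arrays spread from -0.20 to 0.07.

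In CANA against HFD, 25 of the 33 members had a difference below 0 (53.9% of all genes did), with a median of -0.12 on the log2 scale beside -0.01 over all tested genes. An unadjusted p under 0.05 with a lower mean was reached by 4 members, Stat2, Gbp7, Iigp1 and Igtp, where 5.19% of all genes reached it in that direction, and by none with a higher mean (3.63% of all genes). In CR against HFD, 30 of 33 had a difference below 0 (53.6% of all genes), with a median of -0.18 beside -0.01 over all genes. There 4 other members, Rtp4, Psmb9, Irf9 and Oasl1, reached an unadjusted p under 0.05 with a lower mean (2.01% of all genes), and none did with a higher mean (1.73% of all genes). In CANA against CR, 15 of 33 were below 0 (51.2% of all genes), the median was 0.04 beside -0.004 over all genes, and none reached an unadjusted p under 0.05 (8.43% of all genes).

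The arrays bound how large a difference these data leave room for. In CANA against HFD, the 95% interval of the difference stayed within 0.5 on either side of 0 for 24 of 33 members and within 1 for 32, the exception being Gbp7. For CR against HFD the numbers were 24 and 33, and for CANA against CR 27 and 33. Over all 13308 genes, 10797, 11720 and 11183 intervals stayed within 0.5 in these comparisons, and 13063, 13196 and 13123 within 1. In each comparison, the share within 0.5 was smaller for the members than for all genes.

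**Figure D4:**
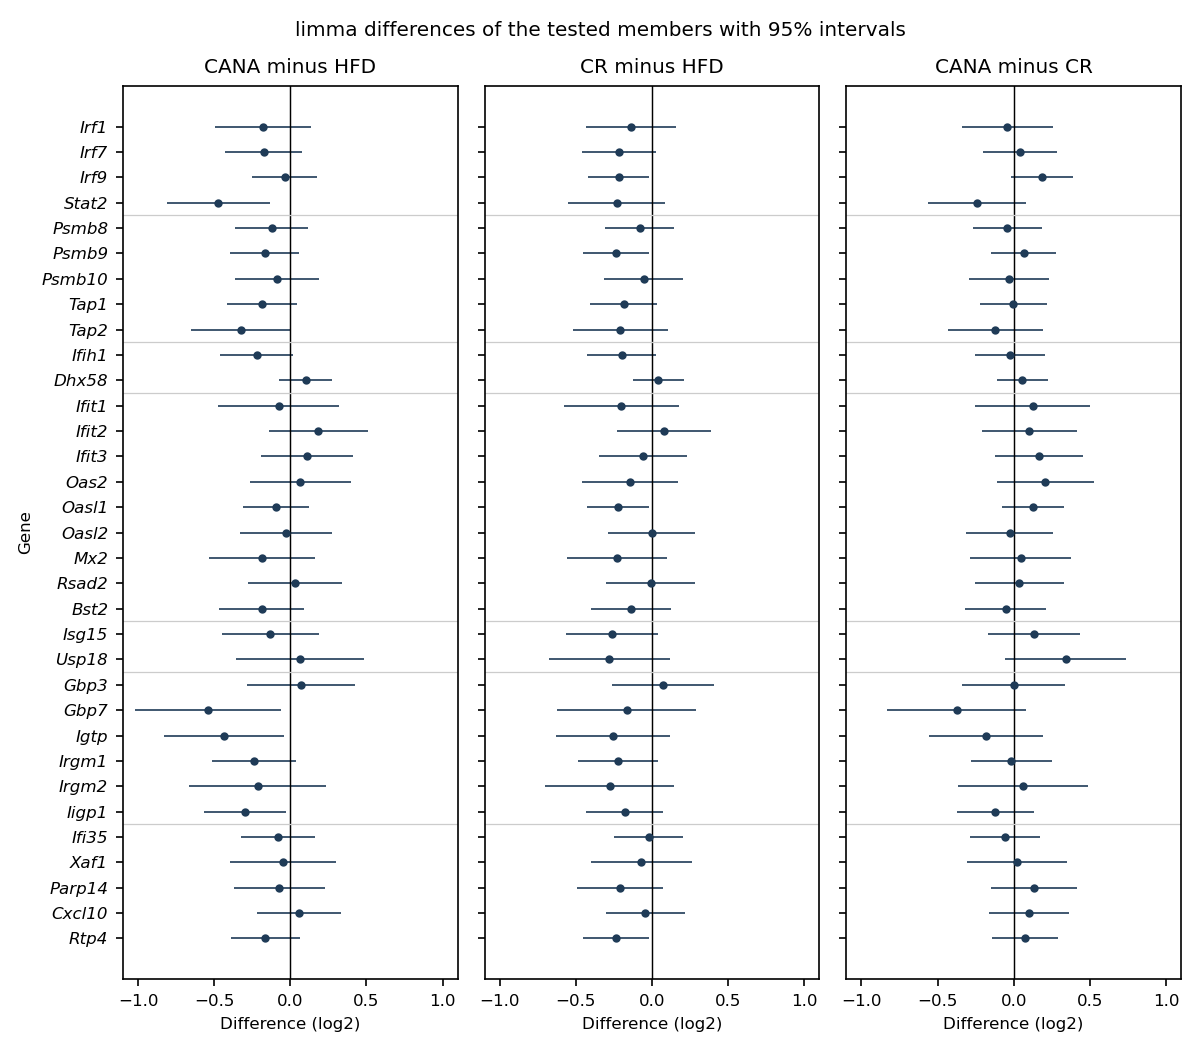
Differences in log2 signal with 95% limma intervals for the 33 tested members, for CANA minus HFD, CR minus HFD and CANA minus CR, in role order from Irf1 to Rtp4. In CANA minus HFD the intervals of Stat2, Gbp7, Igtp and Iigp1 lie below 0, and in CR minus HFD those of Irf9, Psmb9, Oasl1 and Rtp4, before any adjustment for the 13308 genes tested.

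Among the regulators, Stat2, the subunit of ISGF3 that carries its activation domain, had the smallest adjusted p of all members in CANA against HFD. Its log2 signal was 7.32, 7.23, 6.95 and 7.30 in CANA, 7.00, 7.93, 7.44, 7.37 and 7.46 in CR and 7.50, 7.52, 7.84 and 7.82 in HFD. Every CANA array lay below every HFD array, and the CR arrays spread across both ranges, with replicate 2 the highest of all 13 and replicate 1 near the lowest. Stat2 was 1 of 2 members whose CANA arrays all lay below the HFD arrays, as did those of 2.77% of all genes, and the other was Iigp1. No member had CANA arrays that all lay above the HFD arrays (2.13% of all genes), or CR arrays all below or all above them (0.721% and 0.451%), or CANA arrays all below or all above the CR arrays (1.51% and 1.42%). The CANA minus HFD difference of Stat2 was -0.47 with a standard error of 0.16, a fold of 0.721, and a limma adjusted p of 0.337. With other processing or sets of serial numbers it ranged from -0.71 to -0.23, and without single arrays from -0.53 to -0.39. Against CR, the CANA difference was -0.24 (limma adjusted p = 0.71), and CR minus HFD was -0.23 (limma adjusted p = 0.999).

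Irf9, the DNA-binding subunit of ISGF3, had another pattern. Its log2 signal was 7.14, 7.13, 7.09 and 6.99 in CANA, 6.68, 7.14, 6.89, 6.83 and 6.98 in CR and 7.09, 7.26, 7.03 and 7.12 in HFD. The CANA and HFD arrays shared 1 narrow range, and 4 of the 5 CR arrays lay below all of them. CR minus HFD was -0.22 with a standard error of 0.10 (limma adjusted p = 0.999), CANA minus CR was 0.18 (limma adjusted p = 0.629), and CANA minus HFD was -0.04. The CANA minus HFD difference turned to 0.009 without HFD replicate 2. From low to high, the group means of Stat2 ran CANA, CR and HFD and those of Irf9 CR, CANA and HFD, and this difference in order was not tested. Over the 13 arrays Stat2 and Irf9 correlated with the mean of the other members at an r of 0.64 and 0.69.

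Irf7, which amplifies transcription of interferon alpha genes, averaged 7.32 ± 0.10 in CANA, 7.27 ± 0.23 in CR and 7.49 ± 0.13 in HFD (SD, n = 4, 5 and 4). Irf1, itself a GAS target and a direct activator of immunoproteasome and MHC class I genes, averaged 5.91 ± 0.36 in CANA, 5.95 ± 0.16 in CR and 6.09 ± 0.12 in HFD. The spread of Irf1 in CANA came from replicates 3 and 4, at 5.74 and 5.48, below replicates 1 and 2 at 6.24 and 6.16. Neither was called in any comparison, with CANA minus HFD at -0.18 for Irf7 and -0.18 for Irf1. The Irf1 difference was 0.05 within the arrays that the labels number 1 to 8. All 4 regulators had a CANA and a CR mean below that of HFD, with medians of -0.18 in CANA and -0.22 in CR.

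The 5 antigen-processing members also had lower means in CANA and in CR than in HFD, each by little. Psmb9, the immunoproteasome subunit that replaces the caspase-like one, measured 6.57, 6.48, 6.43 and 6.28 in CANA, 6.54, 6.29, 6.43, 6.29 and 6.31 in CR and 6.47, 6.82, 6.43 and 6.70 in HFD. HFD replicates 2 and 4 were the highest of all arrays, and HFD replicates 1 and 3 lay within the ranges of both other groups. CR minus HFD was -0.24 with a standard error of 0.10 (limma adjusted p = 0.999), and CANA minus HFD was -0.17 (limma adjusted p = 0.713). Psmb8, which replaces the chymotrypsin-like subunit, measured 7.40, 7.58, 7.34 and 7.66 in CANA, 7.56, 7.54, 7.61, 7.49 and 7.49 in CR and 7.86, 7.69, 7.32 and 7.61 in HFD. HFD held both its highest array, replicate 1, and its lowest, replicate 3. Psmb10, which replaces the trypsin-like subunit, averaged 7.54 ± 0.23 in CANA, 7.57 ± 0.10 in CR and 7.63 ± 0.24 in HFD, with a CANA minus HFD difference of -0.08 and a CR minus HFD difference of -0.06. Without HFD replicate 1 these became 0.006 and 0.04.

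Tap1 and Tap2 encode the subunits of the transporter that carries peptides into the endoplasmic reticulum. Tap2 measured 5.21, 5.20, 5.12 and 4.51 in CANA, 5.03, 5.38, 5.27, 5.00 and 4.98 in CR and 5.56, 5.19, 5.18 and 5.43 in HFD. CANA replicate 4 lay far below the 12 other arrays, and of the remaining CANA arrays replicates 1 and 2 lay within the HFD range and replicate 3 just below it. The CANA minus HFD difference of Tap2 was -0.33 with an interval of -0.65 to 0.0002 (limma adjusted p = 0.567), and CR minus HFD was -0.21. Without CANA replicate 4, the Tap2 difference between CANA and HFD was -0.16. Tap1 averaged 7.22 ± 0.17 in CANA, 7.22 ± 0.11 in CR and 7.40 ± 0.16 in HFD, with a CANA minus HFD difference of -0.19 and a CR minus HFD difference of -0.18. Psmb9 and Tap1 start 225 bases apart on opposite strands, and their signals correlated at an r of 0.36 over 13 arrays.

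Of 14 constitutive proteasome genes tested, 6 were below 0 in CANA against HFD with a median of 0.01, and 9 were below 0 in CR against HFD with a median of -0.04. None was called. Psmb3, a structural beta subunit, had the smallest p, with a CANA minus HFD difference of -0.24 (limma adjusted p = 0.52), and Psma6, an alpha subunit, had a CANA minus CR difference of 0.21 (limma adjusted p = 0.585). Of 13 MHC class I and peptide-loading genes, 12 were below 0 in CANA against HFD (53.9% of all genes) with a median of -0.16. In CR against HFD 9 were (53.6% of all genes), with a median of -0.06. None was called there either. Pdia3, the oxidoreductase of the peptide-loading complex, had a CANA minus HFD difference of -0.45 and a CR minus HFD difference of -0.34 (limma adjusted p = 0.288 and 0.999). Tapbp, tapasin, had a CANA minus CR difference of -0.32 (limma adjusted p = 0.472). Of 4 MHC class II genes 1 was below 0 in CANA against HFD and none in CR against HFD, with H2-Aa at -0.11 and H2-Ab1 at 0.03 in CANA minus HFD (limma adjusted p = 0.952 and 0.988).

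The GTPases had the lowest median of the role groups in CANA against HFD. It was -0.27 in CANA minus HFD and -0.20 in CR minus HFD, with 5 of 6 below 0 in each, Gbp3 being the exception. Iigp1, an immunity-related GTPase that coats vacuoles of intracellular parasites, measured 9.48, 9.45, 9.51 and 9.65 in CANA, 9.43, 9.96, 9.80, 9.39 and 9.64 in CR and 9.72, 10.04, 9.69 and 9.84 in HFD. All CANA arrays lay below all HFD arrays, and the CR arrays spread across both ranges. CANA minus HFD was -0.30 with a standard error of 0.13, a fold of 0.813 (limma adjusted p = 0.506), and CR minus HFD was -0.18 (limma adjusted p = 0.999). The CANA minus HFD difference of Iigp1 was -0.42 within the arrays numbered 1 to 8 and -0.18 within those numbered 9 to 14.

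Igtp, which keeps the effector GTPases inactive on the cell's own membranes, measured 6.60, 6.03, 5.91 and 6.64 in CANA, 5.99, 6.52, 6.88, 6.52 and 6.47 in CR and 6.52, 6.92, 6.76 and 6.72 in HFD. CANA replicates 2 and 3 and CR replicate 1 formed a low set near 6, and the other CANA and CR arrays lay within or near the HFD range. CANA minus HFD was -0.44 with a standard error of 0.19 (limma adjusted p = 0.506). Irgm2, its neighbour with the near-identical promoter window, averaged 6.92 ± 0.29 in CANA, 6.86 ± 0.46 in CR and 7.14 ± 0.22 in HFD. The signals of Igtp and Irgm2 correlated at an r of 0.81 over the 13 arrays, and CR replicate 1 was low for both, at 5.99 and 6.33. What underlies this correlation was not tested, neither the promoter nor any hybridising sequence the 2 probe sets may share. Irgm1, a further regulator of this family, averaged 5.59 ± 0.21 in CANA, 5.60 ± 0.17 in CR and 5.83 ± 0.21 in HFD. In HFD, Irgm1 was close to 5.72 in replicates 1 to 3 and higher in replicate 4, at 6.14.

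Gbp7, a guanylate-binding protein, had the largest difference of all members and also the widest interval. It measured 5.72, 6.61, 6.59 and 6.63 in CANA, 6.35, 7.03, 6.81, 6.68 and 6.96 in CR and 6.47, 6.67, 7.16 and 7.42 in HFD. CANA replicate 1 was the lowest of all arrays by a wide margin, the other 3 CANA arrays were close to each other, and the HFD arrays reached from below the upper CANA arrays to well above them. CANA minus HFD was -0.54, with an interval of -1.02 to -0.06 (limma adjusted p = 0.497), and -0.32 without CANA replicate 1. Gbp7 had the steepest relation to the serial number that the labels give each array, with a slope of 0.06 per number (limma adjusted p = 0.0871), and CR minus HFD, at -0.17, became 0.16 within the arrays numbered 1 to 8. Gbp3 averaged 5.02 ± 0.29 in CANA, 5.02 ± 0.25 in CR and 4.95 ± 0.27 in HFD, and Gbp6, below the filter, averaged 2.44 ± 0.26 in CANA, 2.44 ± 0.21 in CR and 2.55 ± 0.17 in HFD.

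**Figure D5:**
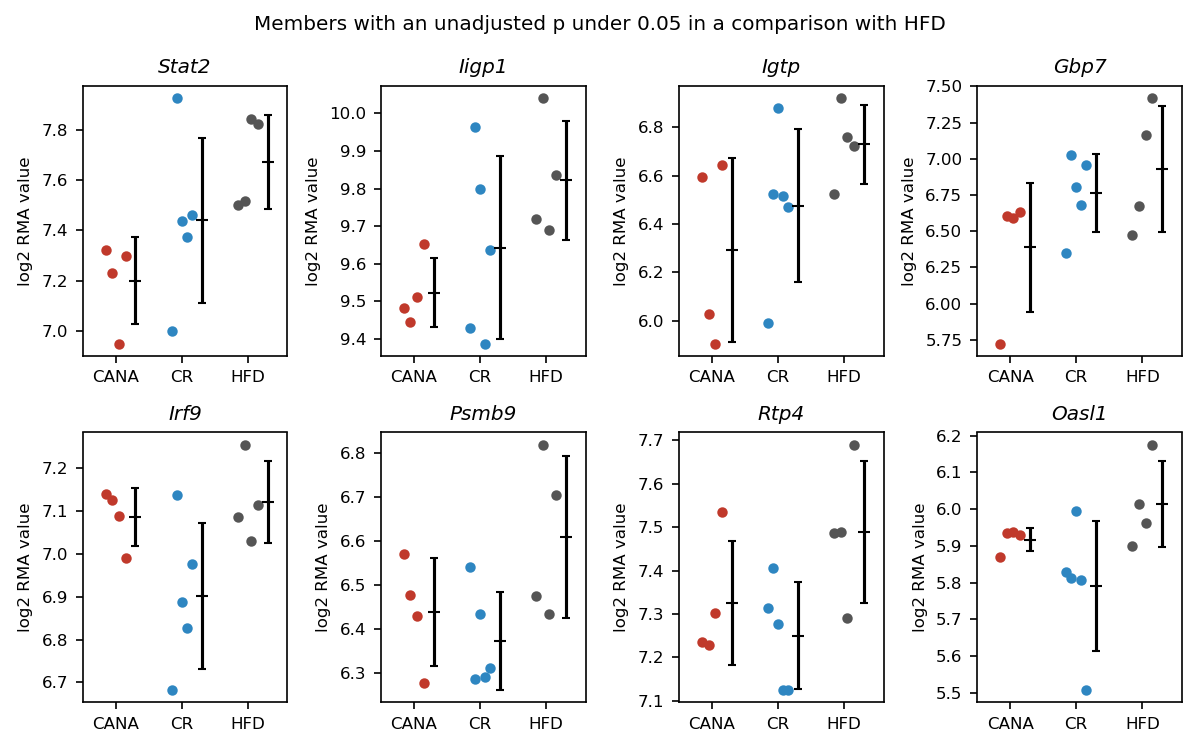
Log2 RMA signal of the 8 members with an unadjusted p under 0.05 in CANA or CR against HFD; each point is 1 array, and the bar beside each group is its mean ± SD (n = 4 CANA, 5 CR and 4 HFD). CANA and HFD arrays are separate for Stat2 and Iigp1 and overlap for the other 6, and no panel has CR arrays separate from HFD arrays.

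Both RNA sensors and both genes of the ISG15 system were tested. Ifih1, the sensor MDA5 for long double-stranded RNA, ranged from 7.48 to 7.80 in CANA, 7.51 to 7.92 in CR and 7.74 to 8.04 in HFD, with group means of 7.67, 7.69 and 7.89. Dhx58, the sensor LGP2 that modulates MDA5, ranged from 5.06 to 5.34 in CANA, 5.08 to 5.19 in CR and 5.06 to 5.13 in HFD, the narrowest span of any member. Isg15, a ubiquitin-like protein joined to other proteins, averaged 4.28 ± 0.27 in CANA, 4.14 ± 0.15 in CR and 4.41 ± 0.27 in HFD, with HFD replicate 2 the highest array at 4.80. CR minus HFD of Isg15 was -0.26 (limma adjusted p = 0.999), and CANA minus HFD was -0.13. Usp18, the protease that removes ISG15 and dampens the type I receptor, measured 6.27, 6.73, 6.40 and 6.42 in CANA, 5.53, 6.59, 6.59, 5.75 and 6.12 in CR and 6.32, 6.37, 6.40 and 6.49 in HFD. The 4 HFD arrays were close to each other, and CR held both replicates 1 and 4, the lowest, and replicates 2 and 3, among the highest. CANA minus CR of Usp18 was 0.34 (limma adjusted p = 0.654), the largest positive difference of a member in that comparison. Usp18 had a CR minus HFD difference of -0.28 (limma adjusted p = 0.999) and a CANA minus HFD difference of 0.06. Both genes of the ISG15 system thus lay below 0 in CR against HFD, with the lowest median of the role groups there at -0.27, and above 0 in CANA against CR, with a median of 0.24.

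Of 9 antiviral effectors tested, 5 were below 0 in CANA against HFD with a median of -0.03, and 8 in CR against HFD with a median of -0.14. Oasl1, which in mouse limits translation of Irf7, measured 5.87, 5.93, 5.94 and 5.93 in CANA, 5.83, 5.81, 5.99, 5.81 and 5.51 in CR and 5.90, 6.01, 5.96 and 6.18 in HFD. The CANA arrays lay close together, and CR replicate 5 was the lowest array. CR minus HFD of Oasl1 was -0.22 with a standard error of 0.10 (limma adjusted p = 0.999). Ifit1, which binds viral RNA lacking host cap methylation, measured 5.61, 6.66, 5.90 and 5.95 in CANA, 5.85, 6.20, 5.84, 5.81 and 5.82 in CR and 5.68, 6.24, 6.27 and 6.23 in HFD. Both its highest and its lowest array were CANA, replicates 2 and 1, so the group means of 6.03, 5.90 and 6.11 say little. Ifit2 averaged 4.23 ± 0.35 in CANA, 4.13 ± 0.15 in CR and 4.05 ± 0.20 in HFD and Ifit3 5.88 ± 0.20 in CANA, 5.71 ± 0.16 in CR and 5.77 ± 0.29 in HFD, and both had their highest mean in CANA.

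Oas2, a synthase of the oligoadenylates that activate RNase L, averaged 5.41 ± 0.24 in CANA, 5.20 ± 0.29 in CR and 5.34 ± 0.18 in HFD. Its relative Oasl2 averaged 5.00 ± 0.29 in CANA, 5.03 ± 0.12 in CR and 5.03 ± 0.23 in HFD, the closest 3 means of any member of this group. Rsad2, viperin, an enzyme that makes a chain-terminating nucleotide, averaged 6.00 ± 0.33 in CANA, 5.96 ± 0.10 in CR and 5.97 ± 0.21 in HFD. Bst2, tetherin, which holds budding virions at the cell surface, ranged from 9.22 to 9.51 in CANA, 9.11 to 9.68 in CR and 9.39 to 9.80 in HFD. Mx2, of the family of dynamin-like GTPases, averaged 4.48 ± 0.28 in CANA, 4.44 ± 0.26 in CR and 4.67 ± 0.23 in HFD. Mx1, of which C57BL/6 mice carry a defective allele, averaged 2.89 ± 0.35 in CANA, 2.99 ± 0.17 in CR and 2.84 ± 0.19 in HFD, below the filter.

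Of the 5 remaining members, Rtp4, a receptor-transporter protein, measured 7.24, 7.23, 7.30 and 7.54 in CANA, 7.31, 7.41, 7.28, 7.13 and 7.12 in CR and 7.49, 7.49, 7.29 and 7.69 in HFD. CR replicates 4 and 5 were the lowest arrays and HFD replicate 4 the highest, and CR minus HFD was -0.24 with a standard error of 0.10 (limma adjusted p = 0.999). Parp14, an ADP-ribosyltransferase, averaged 7.00 ± 0.10 in CANA, 6.86 ± 0.25 in CR and 7.07 ± 0.24 in HFD. Xaf1, an antagonist of the apoptosis inhibitor XIAP, averaged 5.86 ± 0.31 in CANA, 5.84 ± 0.11 in CR and 5.91 ± 0.35 in HFD. Ifi35 averaged 7.29 ± 0.20 in CANA, 7.35 ± 0.16 in CR and 7.37 ± 0.08 in HFD, and its other probe set had differences of -0.06, -0.08 and 0.02 in the comparisons of CANA with HFD, CR with HFD and CANA with CR. Cxcl10, the chemokine that attracts T cells through CXCR3, averaged 4.68 ± 0.23 in CANA, 4.57 ± 0.21 in CR and 4.62 ± 0.11 in HFD, with CR replicate 5 the lowest array at 4.22.

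Pairs of members correlated more often than pairs of genes at large. Over the 13 arrays, the 528 pairs of tested members had a median Pearson r of 0.17, with 12.69% of pairs over 0.5, beside a median of 0.005 and 5.1% over 0.5 among all 88544778 pairs of tested genes. These pairs share the same arrays and groups, and the figures are descriptions without a test. All 10 pairs of antigen-processing members and all 15 pairs of GTPases were above 0, with medians of 0.32 and 0.30, while the antiviral effectors had a median of 0.09. The highest pairs were Psmb8 with Psmb10 (0.84), Tap1 with Tap2 (0.83), Iigp1 with Ifih1 (0.81) and Igtp with Irgm2 (0.81), and the lowest was Psmb8 with Ifit3 (-0.74). Iigp1 followed the mean of the other members most closely, at 0.78, then Ifih1 at 0.73 and Usp18 at 0.71, while Ifit3, Dhx58 and Ifit2 ran against it at -0.15, -0.28 and -0.33.

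The genes outside the list most like the members' mean over the 13 arrays were Rnf213 (r = 0.86), Apol9b (0.86), Eif2ak2 (0.86), Fras1 (0.85), Ddx58 (0.84), Atp5g1 (0.84), Gss (0.84) and Hnrnpc (0.84). Of these, Rnf213, Apol9b and Eif2ak2 were on a list of other interferon-stimulated genes, and Ddx58, the sensor RIG-I, was among the nucleic acid sensors. Fras1, Atp5g1, Gss and Hnrnpc were on no pathway list. All 8 were picked as the highest r among all tested genes outside the list over only 13 arrays, a choice that by itself favours high values. The mean log2 signal of Apol9b was 9.21 in CANA, 9.21 in CR and 9.63 in HFD, and that of Eif2ak2, the kinase PKR, was 5.72, 5.64 and 5.85. Among 63 further interferon-stimulated genes tested, none was called, 38 were below 0 in CANA against HFD with a median of -0.06, and 47 in CR against HFD with a median of -0.09. Over all tested genes, 53.9% and 53.6% were below 0 in these comparisons. Gbp10 had a CANA minus HFD difference of -0.88 (limma adjusted p = 0.309), and Trim30d a CR minus HFD difference of -0.78 (limma adjusted p = 0.999).

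Upstream genes of the pathway gave no called gene. Beside the counts that follow, 53.9% of all tested genes were below 0 in CANA against HFD and 53.6% in CR against HFD. Of 5 interferon ligand genes above the filter, 2 were below 0 in CANA against HFD, with Ifna1 at -0.47 (limma adjusted p = 0.255) and Ifnl3 at 0.24 (limma adjusted p = 0.768). Of 9 receptor and JAK-STAT genes, 6 were below 0 in CANA against HFD and 8 in CR against HFD, with medians of -0.01 and -0.07. Ifnar2, a chain of the type I receptor, had a CANA minus CR difference of 0.19 (limma adjusted p = 0.623), and Stat3 one of 0.26 (limma adjusted p = 0.679). Of 6 other interferon transcription factors, 5 were below 0 in CANA against HFD, with Irf8 and Irf2 both at -0.23 (limma adjusted p = 0.538 and 0.579). Of 8 negative regulators 6 were above 0 in CANA against HFD, with the phosphatase Ptpn11 at 0.14 and Socs3, an inhibitor of JAK kinases, at 0.22 (limma adjusted p = 0.748 and 0.768). Of 11 nucleic acid sensors and adaptors 8 were below 0 in CANA against HFD and 7 in CR against HFD, with the ubiquitin ligase Trim25 at -0.27 and the kinase Ikbke at -0.23 in CR minus HFD (limma adjusted p = 0.999 each).

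Markers of other liver cells varied within groups. The 11 Kupffer cell and macrophage markers, all tested, had a mean deviation of -0.18 to 0.31 in CANA, -0.65 to 0.19 in CR and -0.50 to 0.36 in HFD. CR replicate 5, which held the lowest value of 7 members, was the lowest array for these markers, and HFD replicate 3 was the next, at -0.50, with a mean deviation of the members of 0.04. The 7 sinusoidal endothelial markers ranged from -0.20 to 0.17 in CANA, -0.21 to 0.23 in CR and -0.17 to 0.18 in HFD. Of 7 natural killer cell markers 2 were tested, Nkg7 and Prf1, and Ncr1, which defines these cells, was below the filter. Of 6 plasmacytoid dendritic cell markers 2 were tested, Ly6d and Cox6a2, and the defining Siglech was below the filter. Of 6 B-cell markers 2 were tested, Cd79b and Ighm, the second with a mean log2 signal of 8.04, and the defining Ms4a1 was below the filter. Of 8 T-cell markers 3 were tested, Cd3e, Cd4 and Cd8b1. The mean deviation of the tested natural killer cell markers was -0.004 to 0.17 in CANA, -0.21 to 0.11 in CR and -0.07 to 0.10 in HFD, and that of the plasmacytoid dendritic cell markers was -0.16 to 0.03 in CANA, -0.13 to 0.20 in CR and 0.008 to 0.29 in HFD. That of the B-cell markers was -0.12 to 0.12 in CANA, -0.24 to 0.24 in CR and -0.24 to -0.002 in HFD, and that of the T-cell markers was -0.15 to 0.19 in CANA, -0.22 to 0.36 in CR and -0.26 to 0.11 in HFD, so the groups overlapped for each of these lists. No marker of these lists was called, and the part of cell composition in the members' values was not tested. Across the serial numbers of the labels, 0 of 33 members and 50 of all genes (0.376%) had a called slope, and the median slope of the members was 0.0005 per number beside -0.0009 over all genes.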

How the data were processed

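Per the labels' protocols, TRIzol was used to extract liver RNA, of which 250 ng were labelled with biotin by an Affymetrix whole-transcript protocol. Per the submitters' processing notes, the authors made the deposited log2 values with RMA in Affymetrix Expression Console; versions are not given in the sources used here. The values covered 41345 probe sets on 13 arrays (4 CANA, 5 CR and 4 HFD).

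Probe sets were named from the platform annotation: 23521 had 1 symbol (23328 of them matched to RefSeq by Entrez identifier), 1814 had several and 16010 had none, and only those with 1 symbol were used. Of 22180 genes, 1082 had several probe sets. Genes whose mean was below the 40th percentile (3.95) were left out. A single limma model (version 3.58.1, R 4.3.3) of the group means took in all 13 arrays and no covariate; it had 10 residual degrees of freedom, and 5.71 came from the prior. Tests were two-sided, with Benjamini-Hochberg adjustment over 13308 genes and calls at an adjusted p under 0.05. The fit was also run on simulated data with known changes, whose recovery is not reported here. The model had no replicate block.

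The members, the pathway and marker lists and the sets of serial numbers were chosen with earlier results of these data known. Every member could be named. From each pathway list the genes called, or the 2 genes with the smallest p, were named, along with the 8 genes most correlated with the members' mean. Promoter sequences are those of RefSeq on GRCm38.p6. Other filters, normalizations, variance models, serial-number terms and left-out arrays were also tried.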

Additional observations from a re-analysis of the deposited data

Results flagged for a closer look

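Within each group, the highest or lowest array of each tested member was set against the others, and 8 of 99 sets held an array whose gap to its nearest neighbour, relative to the range of the group, passed the 95% limit of Dixon's test. Chance gives about 1 in 20.

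In CANA, Tap2 was 4.51 in replicate 4, where the other arrays were 5.12 to 5.21. Ifit3 was 5.58 in the same array, where the others were 5.95 to 6.00. Gbp7 was 5.72 in CANA replicate 1, where the others were 6.59 to 6.63, and Oasl1 was 5.87 in that array, where the others were 5.93 to 5.94.

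In CR, Ifit1 was 6.20 in replicate 2, where the others were 5.81 to 5.85, and Cxcl10 was 4.22 in replicate 5, where the others were 4.59 to 4.73. In HFD, Ifit1 was 5.685 in replicate 1, where the others were 6.23 to 6.27, and Irgm1 was 6.14 in replicate 4, where the others were 5.72 to 5.73.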

How the results depend on the processing

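No member was called under any of 29 settings per comparison, with a smallest limma adjusted p of 0.221 in CANA against HFD, 0.886 in CR against HFD and 0.461 in CANA against CR. The members' median difference stayed between -0.18 and -0.09 in CANA against HFD and between -0.21 and -0.13 in CR against HFD, and lay between -0.01 and 0.05 in CANA against CR. Over all genes, the 22 calls in CANA against HFD became 12 with no filter on dim genes, 14 with a filter at the 20th percentile, 39 at the 60th percentile, 14 with trend and robust variance, 56 at an adjusted p under 0.10, 40 with the serial number as a covariate, 46 with the serial-number set as a term, 2 within serial numbers 1 to 8 and 0 within 9 to 14, where 1290 genes had an unadjusted p under 0.05. Leaving out single arrays gave 3 to 38 calls. In CR against HFD, 0 calls became 1 with the replicate block, 1 with the serial number and 1 with the serial-number set, and leaving out single arrays gave 0. In CANA against CR, 20 calls became 34 at an adjusted p under 0.10, 5 within serial numbers 1 to 8 and 0 within 9 to 14 (910 unadjusted), and 7 to 23 without single arrays. The labels give the replicate number no meaning, but the serial numbers of same-numbered arrays adjoin. They were 1 to 3 for replicate 1, 4 to 6 for replicate 2, 8 to 10 for replicate 3 and 11 to 13 for replicate 4. Same-numbered arrays of different groups had deviations from their group means that correlated over 0.1 in 7 of 12 pairs (range -0.15 to 0.30), against 10 of 44 pairs with different numbers (range -0.32 to 0.25), and 8 of 12 arrays correlated best with an array of their own number. This is a hint of deviations shared within a replicate number. Not every pair was over 0.1 and the labels state no pairing, so the main model did not pair the arrays, which does not exclude blocks. The replicate block gave 29, 1 and 17 calls over all genes in the 3 comparisons, and changed no call of a member. Signs turned within serial numbers 1 to 8 for Gbp7 in CR against HFD (0.157), Rtp4 in CANA against CR (-0.101) and Irf1 in CANA against HFD (0.0522). They turned within numbers 9 to 14 for Iigp1 in CANA against CR (0.0709), Psmb8 in CANA and in CR against HFD (0.0392 and 0.0271) and Psmb10 in CANA and in CR against HFD (0.02 and 0.0827). Without single arrays, Irf9 in CANA against HFD ranged from -0.066 to 0.009, Psmb10 from -0.184 to 0.0057, and Psmb10 in CR against HFD from -0.137 to 0.0354. The cause was not tested.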
